A study of Rattus norvegicus with 20 samples.

Results

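The genes described here are NRF2, its inhibitor KEAP1 and 7 of NRF2's antioxidant targets outside the glutathione transferases, measured in the liver of male rats given triphenyl phosphate. They were chosen by name: Nqo1, Gclc, Gclm, Txnrd1, Srxn1, Me1, Osgin1, Nfe2l2 and Keap1. All 9 were measured, by 15 probe sets, out of 14217 genes and 31042 probe sets in all, and each gene is represented by its brightest probe set unless another is named. Triphenyl phosphate is an organophosphate used as a flame retardant and plasticizer. Male Harlan Sprague-Dawley rats received corn oil alone (vehicle, 5 arrays) or triphenyl phosphate in corn oil at 55, 110, 220, 440 or 881 mg/kg (3 arrays each) by oral gavage, once a day for 4 days, and the liver was taken on day 5. The sample labels give 440 mg/kg where the study's design text gives 441 mg/kg. The labels' protocols state 3 rats for each dose, do not account for the 5 vehicle arrays and do not tie arrays to rats, so p-values measure the spread between these arrays, which may in part be technical. Levels are log2 values normalized by RMA, and a change is a difference of mean log2 levels, dosed minus vehicle, from 1 linear model of all 20 arrays. "Rose" and "fell" are used where limma's adjusted p was under 0.05.

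NRF2, encoded by Nfe2l2, is a transcription factor held at a low level by KEAP1, an adaptor that brings it to a CUL3 ubiquitin ligase for degradation. Reactive compounds modify cysteines of KEAP1, newly made NRF2 then escapes degradation, pairs with a small MAF protein and binds antioxidant response elements near its target genes. NRF2 is therefore known to be set mainly at the level of the protein, which these arrays do not measure. In the liver its targets reduce quinones, make glutathione, keep thioredoxin and peroxiredoxins reduced, and supply NADPH.

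The core letters of the antioxidant response element were searched for upstream of the 9 genes, since most of these genes moved together at the top dose. The core TGACNNNGC was looked for on both strands in the 250 bases before each RefSeq transcription start (build GRCr8), and all 9 genes matched an entry by gene symbol, Txnrd1 with 2 start sites. It occurred upstream of 3 of the 9 genes, Me1, Gclm and Txnrd1. Counted by window, it occurred in 3 of their 10 windows and in 10.1% of all 33469 upstream windows of that length. The wider form TGANNNNGC, which includes every match of the core, occurred upstream of 7 of the 9 genes. Counted by window, the wider form occurred in 7 of the 10 windows and in 34.7% of all windows, so a match to it is common. The 3 windows with the core read as follows, 5′ to 3′ on the gene's strand, with the match in capitals. The Me1 window lies at chr8:96540245-96540494 on the minus strand and its match starts at position -167 from the start site, Gclm at chr2:213031885-213032134 on the plus strand with its match on the reverse strand from position -172, and Txnrd1 at chr7:22755905-22756154 on the minus strand with its match on the reverse strand from position -78.
Me1: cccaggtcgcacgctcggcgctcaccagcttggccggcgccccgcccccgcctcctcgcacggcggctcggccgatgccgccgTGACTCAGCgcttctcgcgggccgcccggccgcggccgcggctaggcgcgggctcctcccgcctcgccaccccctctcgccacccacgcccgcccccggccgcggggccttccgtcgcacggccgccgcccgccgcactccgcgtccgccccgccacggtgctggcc
Gclm: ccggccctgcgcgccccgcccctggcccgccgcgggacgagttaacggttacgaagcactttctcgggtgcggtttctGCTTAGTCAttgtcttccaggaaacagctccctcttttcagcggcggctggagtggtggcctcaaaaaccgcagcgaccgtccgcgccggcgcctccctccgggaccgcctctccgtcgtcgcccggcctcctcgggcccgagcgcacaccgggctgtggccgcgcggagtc
Txnrd1: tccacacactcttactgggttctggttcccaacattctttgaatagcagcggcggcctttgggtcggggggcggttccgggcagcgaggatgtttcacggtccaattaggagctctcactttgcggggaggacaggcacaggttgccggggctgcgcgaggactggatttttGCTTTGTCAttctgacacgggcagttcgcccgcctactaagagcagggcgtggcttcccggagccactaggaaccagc
The match reads TGACTCAGC upstream of Me1, TGACTAAGC upstream of Gclm and TGACAAAGC upstream of Txnrd1 when written 5′ to 3′ on its own strand. No match to either form lies in the windows of Gclc and Nfe2l2. Elements outside the 250 bases were not searched for, so a window without a match does not show that a gene lacks one. A match is a run of letters only: binding was not measured.

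At 881 mg/kg, 7 of the 9 genes rose: Nqo1, Gclc, Gclm, Txnrd1, Srxn1, Me1 and Keap1. None fell, and Osgin1 and Nfe2l2 were not called. Over all genes, 19.5% were called at this dose, 12.7% upward and 6.73% downward. The median change of the 9 genes was 0.92, against 0.00072 over all genes. In each of the 7 genes that rose, all 3 arrays at 881 mg/kg lay above all 5 vehicle arrays, which held for 13.4% of all genes. The changes ran in size from Me1 and Nqo1, each about 3.5-fold, to Txnrd1 at 1.34-fold. Of all called genes at this dose, 65.4% rose, and 76.8% rose when each array was centred on its median; the 7 genes were called under that scaling too.

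At 440 mg/kg, 3 of the 9 rose (Nqo1, Gclm and Me1) and 2 fell (Osgin1 and Nfe2l2), where 11.0% of all genes were called, 6.76% upward and 4.28% downward. The median change of the 9 was 0.33, against -0.0016 over all genes. At 220 mg/kg limma called 0 of the 9, with 3.43% of all genes called; 3 had an unadjusted p under 0.05, namely Nqo1 (0.80), Srxn1 (0.49) and Gclm (0.46), with adjusted p between 0.0946 and 0.106. At 110 mg/kg limma again called 0 of the 9 (3.61% of all genes), with 1 unadjusted p under 0.05, for Nqo1 at 0.72. At 55 mg/kg it called 0 of the 9 (2.81% of all genes), with 1 unadjusted p under 0.05, for Nfe2l2 at -0.35. The share of all genes with an unadjusted p under 0.05 was not counted, so the unadjusted counts have no background beside them. All 5 comparisons share the vehicle arrays.

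**Figure D1:**
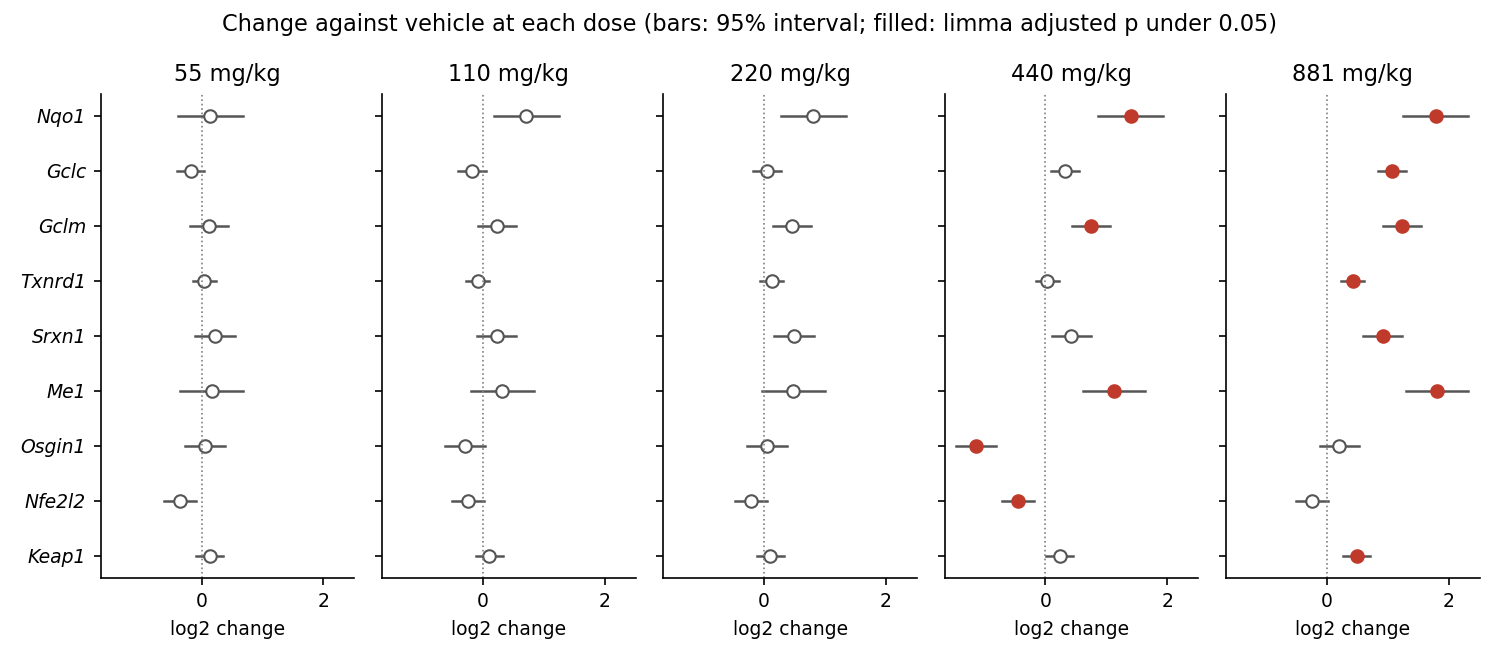
Log2 change against vehicle of the 9 genes (rows) at each dose (panels, 55 to 881 mg/kg), from the limma model of all 20 arrays; points are estimates, bars 95% confidence intervals, and filled points have an adjusted p under 0.05. Filled points appear only at 440 and 881 mg/kg; Osgin1 stands at -1.14 at 440 mg/kg and at 0.21 at 881 mg/kg.

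The second array at 881 mg/kg stood apart from the other 19. Its median correlation with the other arrays was 0.980, against 0.990 to 0.994. The 3′ minus 5′ difference of its Gapdh control probe sets, a sign of RNA quality, was 5.24, against 0.81 to 1.64. That of beta-actin was 3.47, against 1.67 to 2.72. The hexokinase difference went the other way, at 1.47 against 1.54 to 2.055. Values without this array stand beside many of the results it moves, but not beside all of them. Hepatocyte markers were high on every array (Alb between 15.30 and 15.36), as the liver label states. The summed linear level of 9 measured Kupffer cell and macrophage markers was 5964 to 9667 at 881 mg/kg, against 10686 to 14631 in vehicle, and 8 of the 9 fell (4 of 9 without the second array). Of 10 stellate cell and fibroblast markers 6 fell (3 without the second array), with sums of 2762 to 4318 at 881 mg/kg against 5233 to 6846 in vehicle, and of 6 endothelial markers 3 fell (1 without it), with sums of 3192 to 5641 at 881 mg/kg against 5029 to 6676 in vehicle. At 440 mg/kg 2 of 9, 4 of 10 and 3 of 6 of these markers fell. Over all genes 6.73% fell and 12.7% rose at 881 mg/kg, and 4.28% fell at 440 mg/kg. Without the second array 559 of 14217 genes fell and 1084 rose at 881 mg/kg. Sums of 10 hepatocyte markers were 220190 to 230070 at 881 mg/kg and 233560 to 235760 in vehicle, with 1 marker that rose and 3 that fell (1 and 0 without the second array). Bile duct markers summed to 1129 to 1722 at 881 mg/kg and 719 to 947 in vehicle, with 1 of 5 called, upward; of 7 lymphocyte markers 2 fell (1 without the second array), and of 5 blood markers 2 fell (2 without it). RMA gives every probe set a level above 0, so no marker was at 0. The part of these shifts in the results below was not tested, and in whole liver fewer cells of a type and less RNA per cell cannot be told apart.

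Nqo1 encodes the quinone reductase NAD(P)H quinone dehydrogenase 1, which reduces quinones to hydroquinones and is a standard readout of NRF2. The vehicle arrays read 8.20, 8.004, 8.22, 8.21 and 8.56, those at 55 mg/kg 8.21, 8.29 and 8.66, and those at 110 mg/kg 8.35, 9.89 and 8.62. At 220 mg/kg the arrays read 8.60, 9.31 and 9.23, at 440 mg/kg 9.44, 9.64 and 9.85, and at 881 mg/kg 10.00, 10.34 and 9.75. The group means climbed at every dose step, and from 220 mg/kg upward every dosed array lay above every vehicle array, which held for 7.95% of all genes at 220 mg/kg and 12.8% at 440 mg/kg. The second array at 110 mg/kg, at 9.89, lay above all arrays at 220 and 440 mg/kg and 1 of the 3 at 881 mg/kg, and the SD of its group (0.82) was the largest of the 6 groups. Nqo1 rose 2.64-fold at 440 mg/kg (1.40 ± 0.25, SE, adjusted p = 0.00147) and 3.45-fold at 881 mg/kg (1.79 ± 0.25, adjusted p = 0.000106). Without the second 881 mg/kg array the change there was 1.63 (adjusted p = 0.00128). At 881 mg/kg 99.9% of all genes had a lower change than Nqo1.

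Other enzymes that handle quinones, carbonyls and epoxides were counted from a list of 13, all measured. At 881 mg/kg 8 of them rose and 0 fell (8 without the second array), with a median change of 0.61, and at 440 mg/kg 7 rose. Over all genes 12.7% rose at 881 mg/kg and 6.76% at 440 mg/kg. Akr1b8, an aldo-keto reductase, averaged 7.09 at 881 mg/kg and 4.97 in vehicle (2.12 ± 0.42, adjusted p = 0.00199). Its 3 arrays there read 6.86, 8.87 and 5.53 while the vehicle arrays lay between 4.84 and 5.18, so the size rests in part on the second array, without which the change was 1.22 (adjusted p = 0.00322). All its vehicle arrays lay under 6.36, the median level of all probe sets and the mark of low signal here, so the size is uncertain. Akr7a3, the aflatoxin aldehyde reductase, read 13.11, 13.46 and 13.20 at 881 mg/kg, against 11.05 to 11.60 in vehicle, and rose by 1.86 there and by 1.71 at 440 mg/kg. Aox1, an aldehyde oxidase, rose by 0.90 at 881 mg/kg and by 0.88 at 440 mg/kg, and Ephx1, microsomal epoxide hydrolase, by 0.81 and 0.82. Each of these 3 genes had changes within 0.2 of each other at 440 and 881 mg/kg.

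**Figure D2:**
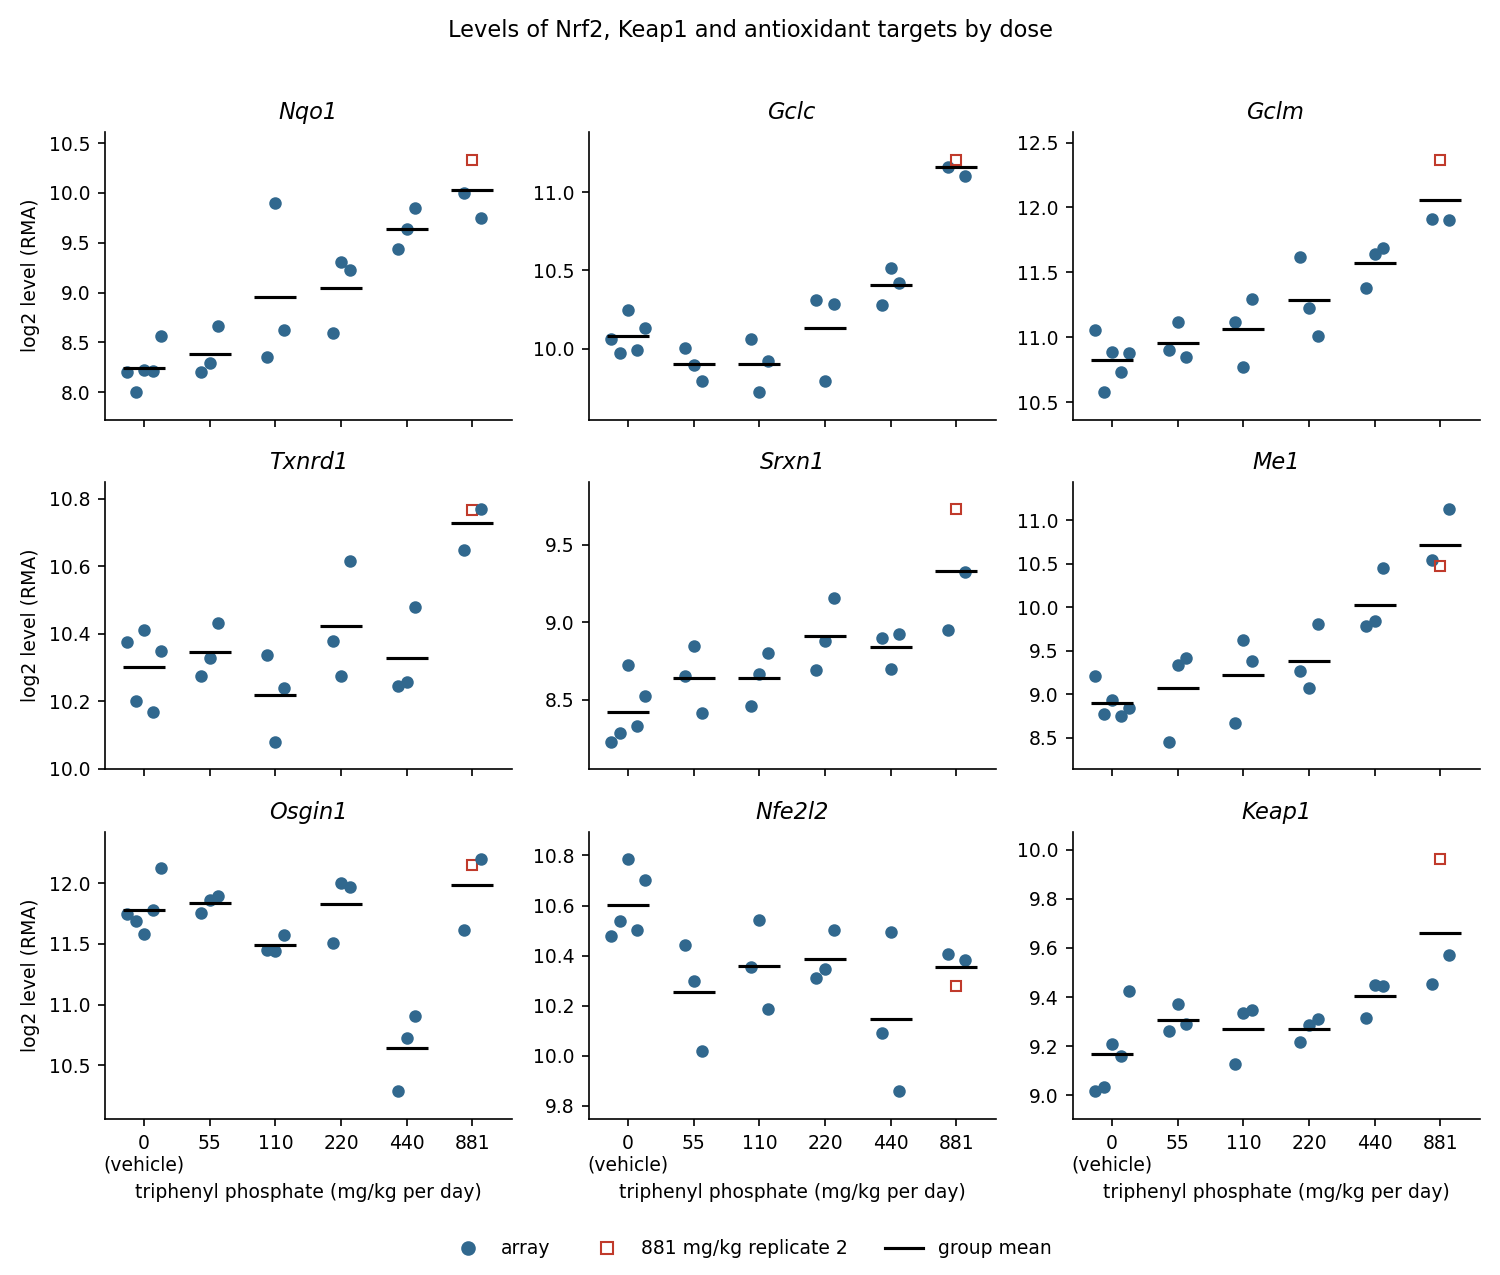
Log2 RMA level (y axes, which differ between panels and do not start at 0) of each of the 9 genes on every array by daily dose in mg/kg (x axis, vehicle as 0); points are arrays, the open square is the second 881 mg/kg array and bars are group means. Nqo1, Gclm and Me1 climb over the dose range, Gclc and Txnrd1 stand clear at 881 mg/kg, and Osgin1 is lowest at 440 mg/kg.

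Gclc and Gclm encode the catalytic and the modifier subunit of glutamate-cysteine ligase, the rate-limiting enzyme of glutathione synthesis. Gclm read 11.05, 10.58, 10.88, 10.74 and 10.88 in vehicle, 10.90, 11.12 and 10.85 at 55 mg/kg, and 11.12, 10.77 and 11.29 at 110 mg/kg. Its arrays read 11.62, 11.22 and 11.01 at 220 mg/kg, 11.38, 11.64 and 11.68 at 440 mg/kg, and 11.91, 12.37 and 11.90 at 881 mg/kg. Its means stood in order of dose, and at 881 mg/kg all 3 arrays lay above all those at 440 mg/kg. Gclm rose 1.67-fold at 440 mg/kg (0.74 ± 0.15, SE, adjusted p = 0.00306) and 2.35-fold at 881 mg/kg (1.23 ± 0.15, adjusted p = 2.15e-05).

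Gclc had another dose pattern. In vehicle it read 10.06, 9.97, 10.24, 9.99 and 10.13, at 55 mg/kg 10.01, 9.90 and 9.80, and at 110 mg/kg 10.06, 9.73 and 9.92, so its mean was 0.18 below vehicle at both low doses, which was not called. The arrays at 220 mg/kg read 10.31, 9.79 and 10.29, those at 440 mg/kg 10.28, 10.52 and 10.42, and those at 881 mg/kg 11.16, 11.21 and 11.10. The arrays at 881 mg/kg were the closest together of the 6 groups (SD 0.052) and lay above all other arrays. Gclc rose 2.11-fold at 881 mg/kg (1.08 ± 0.11, adjusted p = 3.70e-06, the smallest of the 9 genes), and at 440 mg/kg its change was 0.33 (adjusted p = 0.0632). Under 6 of 17 other settings the change at 440 mg/kg was called, among them array weights (0.35, adjusted p = 0.0132) and the fit without vehicle replicate 3 (0.37, adjusted p = 0.0485). The log2 change at 440 mg/kg was 30.3% of that at 881 mg/kg for Gclc and 60.3% for Gclm. Without the second array, the changes at 881 mg/kg were 1.05 for Gclc and 1.08 for Gclm, both called.

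Of 17 other genes of glutathione synthesis, recycling and use, 3 rose at 881 mg/kg (17.6%, against 12.7% of all genes) and 0 fell. The median change was 0.22. At 440 mg/kg 1 rose (5.88%, against 6.76% of all genes). Without the second array 2 rose at 881 mg/kg and the median was 0.10. Ggt1, gamma-glutamyltransferase, which breaks down glutathione outside the cell, read 7.30, 9.28 and 6.91, against 6.19 to 6.70 in vehicle (1.47 ± 0.32, adjusted p = 0.00383). Without the second array its change was 0.75 (adjusted p = 0.00233). Slc7a11, the transport subunit of the cystine importer, read 6.55, 7.31 and 6.59, against 5.45 to 6.25 in vehicle, a change of 1.12 ± 0.26 (adjusted p = 0.00608) whose size is uncertain, since all vehicle arrays lay under the low-signal mark of 6.36. Without the second array the Slc7a11 change was 0.87 and was not called (adjusted p = 0.0559). Glrx, glutaredoxin, rose by 0.25 and without that array was not called either (adjusted p = 0.0663). Gsr, glutathione reductase, read 8.76, 6.56 and 9.04 at 881 mg/kg, against 7.37 to 8.23 in vehicle: the second array lay below all vehicle arrays and the other 2 above them. Its change was 0.22 (adjusted p = 0.734) with that array, and without it 1.003, which was called (adjusted p = 0.0195).

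Txnrd1, cytosolic thioredoxin reductase, reduces thioredoxin with NADPH, and Srxn1, sulfiredoxin, repairs over-oxidised peroxiredoxins. Txnrd1 read 10.38, 10.20, 10.41, 10.17 and 10.35 in vehicle, 10.24, 10.26 and 10.48 at 440 mg/kg, and 10.65, 10.77 and 10.77 at 881 mg/kg. Its arrays at 55, 110 and 220 mg/kg lay between 10.08 and 10.62 and overlapped those of vehicle. All 3 arrays at 881 mg/kg were above every other array. The rise was 1.34-fold (0.43 ± 0.090, SE, adjusted p = 0.00286; 0.41 and adjusted p = 0.0156 without the second array), while the change at 440 mg/kg was 0.026 with a 95% interval from -0.16 to 0.21. When the 2 probe sets of Txnrd1 were averaged, the change at 881 mg/kg was 0.19 and was not called (adjusted p = 0.263).

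Srxn1 read 8.23, 8.29, 8.72, 8.33 and 8.52 in vehicle, 8.69, 8.88 and 9.15 at 220 mg/kg, 8.90, 8.70 and 8.93 at 440 mg/kg, and 8.95, 9.73 and 9.32 at 881 mg/kg. At 55 and 110 mg/kg its arrays lay between 8.41 and 8.85. Only at 881 mg/kg were all its arrays above all vehicle arrays. Srxn1 rose 1.89-fold there (0.92 ± 0.16, adjusted p = 0.000511), and by 0.72 without the second array (adjusted p = 0.00507). Its changes at 220 and 440 mg/kg, 0.49 (adjusted p = 0.0946) and 0.42 (adjusted p = 0.0879), were near each other. The change at 440 mg/kg was called with the compared groups alone in the fit (adjusted p = 0.0335) and without vehicle replicate 3 (0.50, adjusted p = 0.04999).

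Of 14 other measured genes of the thioredoxin and peroxiredoxin system, 6 rose and 2 fell at 881 mg/kg (5 and 1 without the second array), and 3 rose and 1 fell at 440 mg/kg. Over all genes 12.7% rose and 6.73% fell at 881 mg/kg, and 6.76% rose and 4.28% fell at 440 mg/kg. Txnip, the thioredoxin-interacting protein, which binds and inhibits thioredoxin, fell by 1.19 at 881 mg/kg (adjusted p = 0.000537) and by 0.96 at 440 mg/kg (adjusted p = 0.00477). Without the second array the Txnip change at 881 mg/kg was -0.97. Its arrays read 9.85, 9.43 and 9.27 at 440 mg/kg and 9.73, 8.84 and 9.28 at 881 mg/kg, against 10.11 to 10.84 in vehicle. Txn1, cytosolic thioredoxin, rose by 0.26 at 881 mg/kg and by 0.23 at 440 mg/kg. The stress-induced Sesn1 and Sesn2 rose by 0.46 and 0.49 at 881 mg/kg, and mitochondrial Txnrd2 rose by 0.39; without the second array Sesn1 kept its call and Sesn2 (adjusted p = 0.185) and Txnrd2 (adjusted p = 0.108) did not.

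Me1 encodes cytosolic malic enzyme, which makes NADPH while turning malate into pyruvate, and which thyroid hormone and the fed state are also known to induce in rat liver. The vehicle arrays read 9.21, 8.78, 8.94, 8.75 and 8.85, those at 55 mg/kg 8.46, 9.34 and 9.42, and those at 110 mg/kg 8.68, 9.62 and 9.38. At 220 mg/kg they read 9.26, 9.08 and 9.81, at 440 mg/kg 9.78, 9.84 and 10.45, and at 881 mg/kg 10.54, 10.47 and 11.12. At 55 and 110 mg/kg 2 arrays lay above and 1 below all vehicle arrays, and at the top dose every array lay above all others. Me1 rose 2.18-fold at 440 mg/kg (1.12 ± 0.24, SE, adjusted p = 0.00577) and 3.50-fold at 881 mg/kg (1.81 ± 0.24, adjusted p = 6.89e-05; 1.93 without the second array). The call at 440 mg/kg was lost without the third array of that group (0.91, adjusted p = 0.0510). The other Me1 probe set, designed on another transcript sequence, rose by 1.28 and 2.17 at these doses.

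The rest of the NADPH supply moved less. Of 11 other measured genes of the pentose phosphate pathway, NADPH making and NAD phosphorylation, 3 rose at 881 mg/kg (27.3%, against 12.7% of all genes) and 0 fell, with a median of 0.25. At 440 mg/kg 1 rose (9.09%, against 6.76% of all genes). The 3 were Nadk, which makes NADP from NAD, at 0.35, the cytosolic isocitrate dehydrogenase Idh1 at 0.34 and the mitochondrial transhydrogenase Nnt at 0.25. Without the second array 1 of the 11 rose at 881 mg/kg, where 1084 of 14217 genes did: Idh1 kept its call and Nadk and Nnt lost theirs. Idh1 was also called at 440 mg/kg (0.24, adjusted p = 0.0307) and without the second array (0.37, adjusted p = 0.00505).

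Osgin1 is named for its induction by oxidative stress and its inhibition of growth, and it did not follow the other targets. Its arrays read 11.74, 11.69, 11.58, 11.78 and 12.12 in vehicle, 11.76, 11.86 and 11.89 at 55 mg/kg, and 11.45, 11.44 and 11.57 at 110 mg/kg. They read 11.51, 12.00 and 11.97 at 220 mg/kg, 10.28, 10.73 and 10.90 at 440 mg/kg, and 11.61, 12.15 and 12.19 at 881 mg/kg. Every array at 440 mg/kg was below every array of the other groups, and the arrays at 881 mg/kg overlapped vehicle. Osgin1 fell 2.21-fold at 440 mg/kg (-1.14 ± 0.15, SE, adjusted p = 9.63e-05), where 0.317% of all genes had a lower change and 8.40% had all arrays below vehicle. At 881 mg/kg its change was 0.21, with a 95% interval from -0.12 to 0.53 (adjusted p = 0.373). At 110 mg/kg its arrays also lay below all vehicle arrays, with a change of -0.29 that was not called (adjusted p = 0.362); 5.28% of all genes had all arrays below vehicle at that dose.

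Of the regulator pair, Nfe2l2 was called against vehicle only at 440 mg/kg, downward, and Keap1 only at 881 mg/kg, upward. Nfe2l2 read 10.48, 10.54, 10.78, 10.50 and 10.70 in vehicle, 10.44, 10.30 and 10.02 at 55 mg/kg, and 10.35, 10.54 and 10.19 at 110 mg/kg. Its arrays read 10.31, 10.35 and 10.50 at 220 mg/kg, 10.09, 10.50 and 9.86 at 440 mg/kg, and 10.41, 10.28 and 10.38 at 881 mg/kg. All 5 dosed means were below the vehicle mean, by 0.22 to 0.45, and all arrays lay below vehicle at 55 and at 881 mg/kg, which held for 4.26% and 8.31% of all genes. Only the change at 440 mg/kg was called (-0.45 ± 0.13, SE, adjusted p = 0.0255), and it was lost when 440 mg/kg replicate 3 was left out (-0.31, adjusted p = 0.176), likewise for 440 mg/kg replicate 1 (-0.42, adjusted p = 0.0903), vehicle replicate 3 (adjusted p = 0.0569) and vehicle replicate 5 (adjusted p = 0.0506). At 881 mg/kg the change was -0.24, with a 95% interval from -0.51 to 0.019 (adjusted p = 0.182). No dosed group had a higher mean of the NRF2 message than vehicle.

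Keap1 read 9.02, 9.03, 9.21, 9.16 and 9.43 in vehicle, 9.32, 9.45 and 9.45 at 440 mg/kg, and 9.45, 9.96 and 9.57 at 881 mg/kg. Its arrays at 55, 110 and 220 mg/kg lay between 9.13 and 9.37, inside the vehicle range. It rose 1.41-fold at 881 mg/kg (0.49 ± 0.11, SE, adjusted p = 0.00315). The second array was the highest of the 3, and without it the change was 0.34 (adjusted p = 0.0302). The mean of the 2 Keap1 probe sets changed by 0.15 and was not called (adjusted p = 0.238).

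Among 10 other measured regulators and partners of NRF2, 3 rose at 881 mg/kg and 0 fell, with a median of 0.25, and 2 rose at 440 mg/kg. Over all genes 12.7% rose at 881 mg/kg and 6.76% at 440 mg/kg. Maff, a small MAF protein that can pair with NRF2, read 5.53, 8.43 and 6.01 at 881 mg/kg, against 4.95 to 5.08 in vehicle (1.64 ± 0.40, adjusted p = 0.00801); without the second array it rose by 0.75. All its vehicle arrays and 2 of the 3 at 881 mg/kg lay under 6.36, so these sizes are uncertain too. Sqstm1, or p62, a cargo receptor of autophagy that binds KEAP1, rose by 0.30 at 881 mg/kg and by 0.35 at 440 mg/kg, with arrays at 440 mg/kg of 12.83, 12.61 and 12.68, against 12.26 to 12.50 in vehicle. Its arrays at 881 mg/kg read 12.78, 12.44 and 12.77, so the second lay inside the vehicle range and lowered the mean there. Gsk3b, a kinase that marks NRF2 for another degradation route, rose by 0.45 at 881 mg/kg and was not called without the second array (adjusted p = 0.139). Cul3, the ligase scaffold, changed by 0.21 (adjusted p = 0.0676), and Bach1, a repressor that competes for the same DNA elements, by -0.23 (adjusted p = 0.247).

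Genes of heme breakdown and of conjugate export complete the pathway. Of 5 measured heme and iron genes 1 rose at 881 mg/kg: Hmox1, heme oxygenase, which degrades heme and is a target of NRF2 and BACH1, read 10.34, 9.85 and 10.13 at 440 mg/kg and 10.43, 11.29 and 10.76 at 881 mg/kg, against 8.91 to 9.22 in vehicle. All 5 export and heme transport genes had higher means at 881 mg/kg and 4 rose (4 without the second array, and 4 at 440 mg/kg). Abcc3, a basolateral efflux pump of conjugates, read 9.36, 9.90 and 10.38 at 440 mg/kg and 10.22, 10.38 and 10.15 at 881 mg/kg, against 6.36 to 6.83 in vehicle, and Abcc4, Abcc2 and Slc48a1 rose by 1.68, 0.66 and 0.53 at 881 mg/kg. Of 4 superoxide and peroxide removing enzymes 1 rose, mitochondrial Sod2 at 0.41. Over the 8 lists together, 29 of 79 measured genes rose and 2 fell at 881 mg/kg, with a median of 0.25, and 19 rose and 1 fell at 440 mg/kg, with a median of 0.16. Over all genes 12.7% rose and 6.73% fell at 881 mg/kg, and 6.76% rose and 4.28% fell at 440 mg/kg. At 220, 110 and 55 mg/kg 8, 3 and 2 of the 79 rose, where 2.25%, 2.36% and 1.93% of all genes did. By limma 0 of the 79 fell at these doses, where 1.18%, 1.24% and 0.879% of all genes fell. At an unadjusted p under 0.05, 2, 4 and 2 of the 79 were lower, a looser rule that was not counted over all genes.

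**Figure D3:**
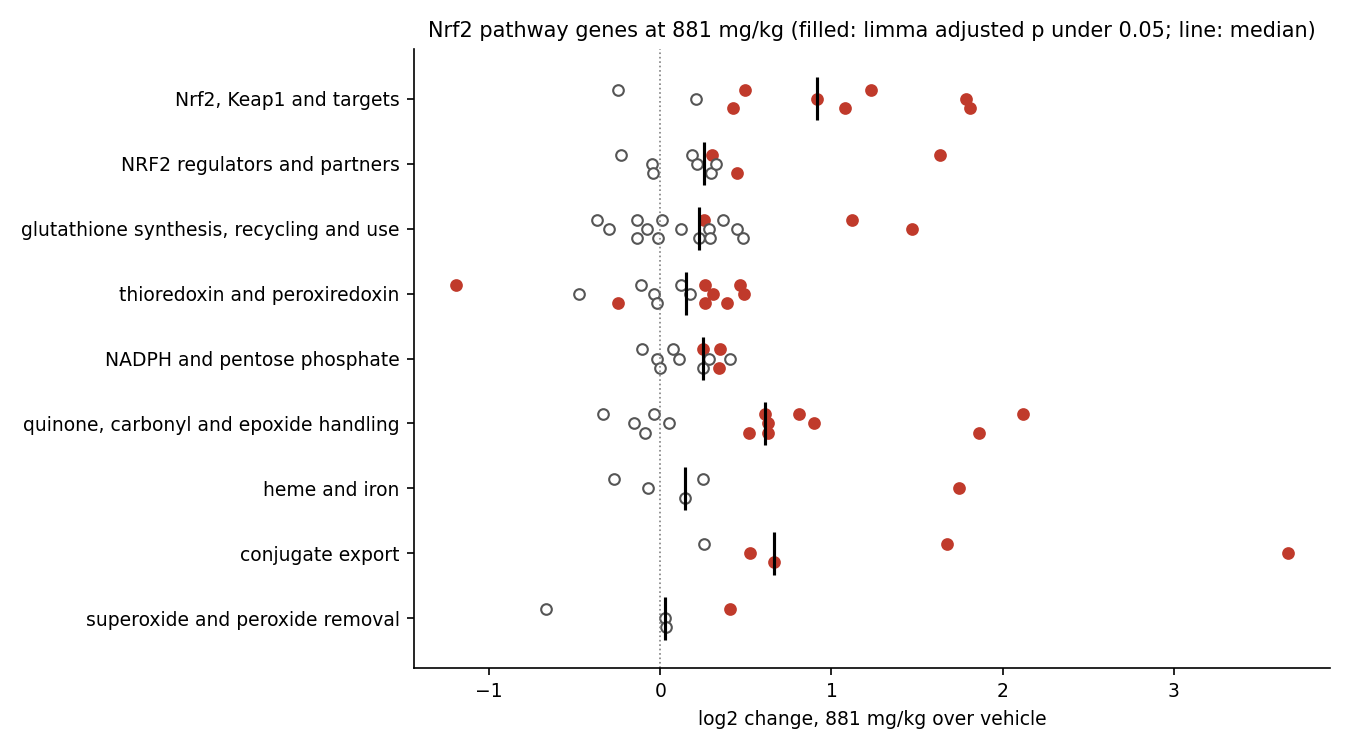
Log2 change at 881 mg/kg over vehicle (x axis) of the 9 genes and of the measured genes of 8 pathway lists (rows); each point is 1 gene, filled where limma's adjusted p was under 0.05, and the vertical line is the list's median. The medians run from 0.030 for superoxide and peroxide removal to 0.92 for the 9 genes, and the point at 3.67 is Abcc3.

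Between the top 2 doses, 2 of the 9 genes differed, where 0.260% of all genes were called and 0.134% were called higher at 881 mg/kg. Osgin1 was 2.55-fold higher at 881 than at 440 mg/kg (1.35 ± 0.17, SE, adjusted p = 0.00376) and Gclc 1.68-fold higher (0.75 ± 0.12, adjusted p = 0.0186), and neither pair of groups overlapped; 7.59% of all genes had every array at 881 mg/kg above every array at 440 mg/kg. Osgin1 had 1 array inside the vehicle range and 2 just above it at 881 mg/kg, while all 3 Gclc arrays lay above vehicle. Without the second 881 mg/kg array both stayed called (adjusted p = 0.00395 and 0.0225). The Gclc call was lost when 440 mg/kg replicate 1 (0.69, adjusted p = 0.0957) or 440 mg/kg replicate 3 (0.76, adjusted p = 0.0663) was left out. The other 7 genes had higher means at 881 mg/kg and were not called. Their differences ran from 0.21 for Nfe2l2, with a 95% interval from -0.087 to 0.50, to 0.69 for Me1, with an interval from 0.11 to 1.26. Txnrd1 differed by 0.40 (adjusted p = 0.102), Gclm by 0.49 (adjusted p = 0.252) and Nqo1 by 0.39, with an interval from -0.21 to 0.98. Limma called 0 of the 79 other pathway genes here, with 15 at an unadjusted p under 0.05, a looser rule that was not counted over all genes.

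Over the whole dose range, 7 of the 9 genes rose in the trend on dose step, where 21.7% of all genes were called and 12.9% rose. Of all trend calls 59.4% rose, and 71.3% with arrays centred on their medians. The slope per dose step was 0.36 ± 0.042 (SE) for Nqo1, 0.33 ± 0.046 for Me1, 0.23 ± 0.027 for Gclm, 0.18 ± 0.035 for Gclc, 0.15 ± 0.027 for Srxn1, 0.077 ± 0.019 for Keap1 and 0.060 ± 0.020 for Txnrd1. Osgin1 (-0.066, adjusted p = 0.426) and Nfe2l2 (-0.053, adjusted p = 0.118) were not called. Without the whole 881 mg/kg group the trends of Nqo1, Gclm, Srxn1 and Me1 stayed called, and those of Gclc (adjusted p = 0.143), Txnrd1 (adjusted p = 0.749) and Keap1 (adjusted p = 0.121) did not. The Txnrd1 trend was also lost without any 1 of the 3 arrays at 881 mg/kg (adjusted p = 0.0684 to 0.0996), without vehicle replicate 2 or 4 (adjusted p = 0.0547 and 0.0599), and with array weights (adjusted p = 0.0818). With the mean of a gene's probe sets, 5 trends were called, and those of Txnrd1 (adjusted p = 0.435) and Keap1 (adjusted p = 0.215) were lost. A Nfe2l2 trend of -0.062 was called without 55 mg/kg replicate 3 (adjusted p = 0.0449).

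The order of the group means separated the genes. For Nqo1, Gclm and Me1 the 6 means stood in order of dose, with vehicle lowest. Neighbouring groups of Gclm and Me1 overlapped except at the top, where 881 mg/kg stood clear of 440 mg/kg, and those of Nqo1 overlapped except between 220 and 440 mg/kg. For Srxn1 the order was vehicle, 55, 110, 440, 220 and 881 mg/kg, with every neighbouring pair overlapping. In Gclc 55 and 110 mg/kg stood below vehicle, and in Txnrd1 110 mg/kg did; in both, 881 mg/kg alone stood clear of its neighbour. Keap1 had its 3 low doses within 0.036 of each other, and 881 mg/kg stood clear of 440 mg/kg. Nfe2l2 was the only gene with vehicle highest, and each of its neighbouring pairs overlapped. In Osgin1 440 mg/kg lay 0.85 below 110 mg/kg, which lay 0.29 below vehicle, neither pair overlapping. How many of all genes have means in order of dose, or a group clear of all others, was not counted, so these orders are descriptions only.

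Where a gene had several probe sets, they did not always give the same picture. When every probe set was tested, 8 of the 15 rose at 881 mg/kg and 0 fell (12.5% of all probe sets were called), and 4 rose and 2 fell at 440 mg/kg (6.08% called). The dimmer probe sets of Txnrd1 (-0.037), Keap1 (-0.19) and Srxn1 (0.13 for both) were not called at 881 mg/kg, nor was that of Gclc (0.50, adjusted p = 0.213). On the second 881 mg/kg array the gap between the bright and the dim probe set was wider than on any other array: 3.40 for Gclc, against 1.49 to 1.99 on the other 19 arrays, 2.69 for Txnrd1, against 1.35 to 1.77, and 4.70 for Keap1, against 2.82 to 3.60. For Srxn1 the gaps were 4.16 and 4.32, against at most 3.31 and 3.83. The Me1 gap went the other way, -0.19 against 0.024 to 0.75. Without that array the dim Gclc probe set rose by 0.99 (adjusted p = 0.00167), near the 1.05 of the bright one, while the dim Txnrd1 probe set changed by 0.31 (adjusted p = 0.174) and the dim Keap1 probe set by 0.056 (adjusted p = 0.879). The dim probe sets of Srxn1 and Keap1 averaged 5.41 to 5.96 over all arrays, under the 6.36 that marked low signal here.

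**Figure D4:**
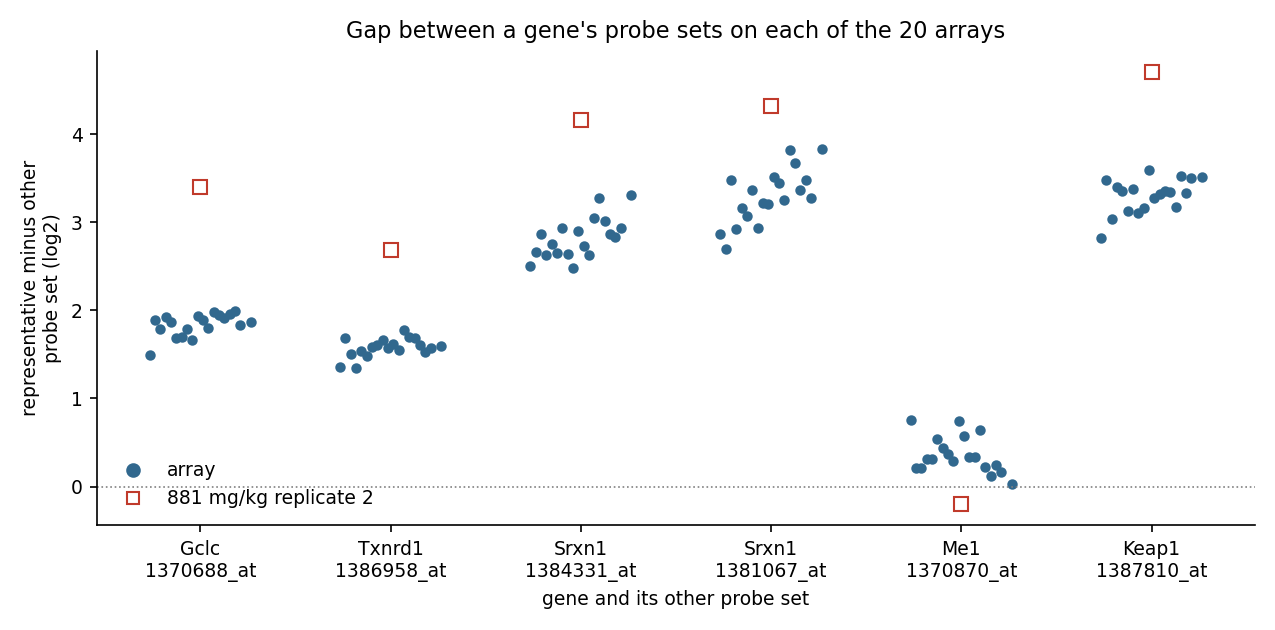
Log2 level of a gene's brightest probe set minus that of its other probe set (y axis) for the 6 such pairs (x axis); points are the 20 arrays, spread sideways in order of dose, and the open square is the second 881 mg/kg array. The square lies above all points for Gclc, Txnrd1, Srxn1 and Keap1, at 2.69 to 4.70, and below them for Me1, at -0.19.

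The 7 genes that rose went together over the 20 arrays, and less so within dose groups. They were picked for rising at the top dose on these same arrays, so going together over all arrays follows in part from that choice. Over the 20 arrays, Pearson's r of the 21 pairs among these 7 genes ran from 0.48 to 0.86, with a median of 0.74. With each array taken relative to its own dose mean, the same 21 pairs ran from -0.42 to 0.74, with a median of 0.19 and 16 above 0. With Osgin1 and Nfe2l2 added, the 36 pairs ran from -0.39 to 0.86 over all arrays, with a median of 0.67 and 26 above 0. Within dose these 36 pairs ran from -0.42 to 0.74, with a median of 0.17 and 26 above 0. These values are descriptions: the arrays share dose groups, and levels on 1 array share its RNA. Nqo1 and Gclc had an r of 0.64 over all arrays and -0.42 within dose, while Srxn1 and Keap1 had 0.86 and 0.74. Gclc and Gclm, the subunits of 1 enzyme, had 0.85 and 0.43. Nfe2l2 had an r below 0 with each of the 7 genes that rose, from -0.39 with Gclm and Me1 to -0.050 with Gclc. Within dose these values ran from -0.26 with Gclm to 0.29 with Gclc, and 4 of the 7 were above 0 (Nqo1, Gclc, Srxn1 and Keap1).

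**Figure D5:**
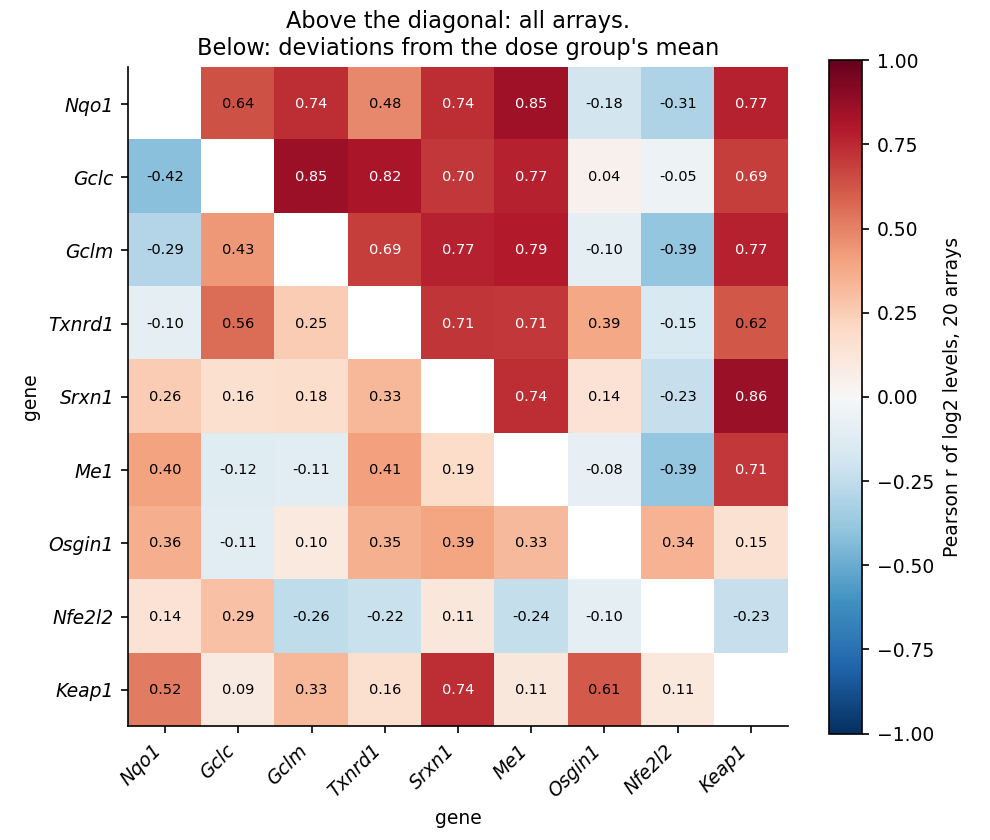
Pearson's r of log2 levels between pairs of the 9 genes over 20 arrays, with colour and number giving r; above the diagonal over all arrays, below it after subtracting each dose group's mean. Above the diagonal the 7 genes that rose have r of 0.48 to 0.86 with one another, and below it most values are nearer 0.

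Genes most like each of the 9 over the 20 arrays were listed by Pearson's r, as a description. For Nqo1 they were Zdhhc2 and Jpt2 (0.93 each), Serpina10 (0.93), the glutathione transferase Gsta4 (0.92) and Abcc3 (0.91). For Me1 they were the glutathione transferases Gsta3 (0.93) and Gstt3 (0.92), Idh1 (0.92), Ndufs1 and Atp5f1c, and for Gclm Cndp2 (0.94), Sbspon (0.93), Mmgt1, Cpped1 and Pir (0.92 each). Gclc was most like Parp1 (0.92), Scly (0.90), Rab7a, Cndp2 and Memo1. Txnrd1 was most like Man2a1 (0.86) and Scly (0.84), with Gclc the next at 0.82. Srxn1 was most like Zc3h14 (0.90), Dgkd and Tfe3 (0.89 each), and Keap1 was most like Nmral1, Eeig1 and Anxa11 (0.91 each). Osgin1 had no gene above 0.75 (Asap2), and Nfe2l2 was most like S1pr1 (0.84).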

How the data were processed

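Liver RNA of 20 samples was measured on Affymetrix arrays, 1 array a sample. The authors' deposited table holds 1 log2 value for each probe set and array; the submitters' processing notes name RMA as its method. The sources used here state no RMA settings or version, scan date or batch. RMA in general normalizes quantiles across arrays and compresses low signals, so fold changes can be understated, and the number of arrays limits the precision. Array medians lay between 6.31 and 6.39.

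Of 31099 probe sets, 57 controls were set aside. In the platform annotation 20826 of the rest carry a single gene symbol, 436 more than 1 and 9780 no symbol, and only the first kind was named; 20758 of them matched a RefSeq gene by ID (GRCr8). The brightest probe set over all arrays stood for each of 14217 genes. Limma 3.58.1 (lmFit, eBayes; R 4.3.3) fitted 1 model of the 6 dose groups; tests were two-sided, with Benjamini-Hochberg adjustment over all genes and calls at an adjusted p under 0.05. The trend used the dose step, 0 to 5. The limma fit of 881 mg/kg against vehicle was also run on simulated data. Promoters are RefSeq's. Tables were made with Python 3.11.15, pandas 2.3.3 and NumPy 2.4.6, and figures with matplotlib 3.10.9.

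All 9 genes were reported whatever their result. Of each pathway list, up to 4 called genes with the largest change at 881 mg/kg were named, with Hmox1, Slc7a11, Gsr, Txn1, Bach1, Cul3 and Sqstm1 in any case, and for each gene up to 5 of those most alike over the arrays. The genes, lists and comparisons were chosen with earlier results of these data known. Lists held 86 pathway genes, of which 79 were measured as single genes, and markers of 7 cell classes. The labels do not state that a replicate number marks a shared animal, litter or day, so it was no block in the main fit. Deviations of same-numbered arrays from their group means correlated at -0.12 to 0.25 between dosed and vehicle groups. Between 881 and 440 mg/kg they correlated at 0.22 to 0.26. A block on the number was checked for every comparison and for the trend. Alternatives were other scalings, probe set rules, filters, weights, covariates and blocks, the compared groups alone, and each array left out.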

Additional observations from a re-analysis of the deposited data

Results flagged for a closer look

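Osgin1 and Gclc differed between 881 and 440 mg/kg in limma's test of that difference, with vehicle as the common baseline of both doses. Osgin1 was higher by 1.35 (log2; adjusted p = 0.00376), averaging 11.99 at 881 mg/kg and 10.64 at 440 mg/kg, with all 3 arrays higher. Gclc was higher by 0.75 (adjusted p = 0.0186), averaging 11.16 at 881 mg/kg and 10.41 at 440 mg/kg, with all 3 arrays higher. Among the 15 probe sets of the 9 genes, no vehicle array lay far enough from the other 4 to pass Dixon's 95% critical value; groups of 3 were not tested.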

How the results depend on the processing

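At 881 mg/kg the 7 calls were 5 with the mean of a gene's probe sets (Txnrd1 and Keap1 lost), 6 with that mean and without 881 mg/kg replicate 2 (chosen after seeing the data), and 7 in every other alternative, leave-one-out fits included. The 5 calls at 440 mg/kg ranged from 3 to 6 with 1 array left out, the 3 without 440 mg/kg replicate 3; they were 7 with the compared groups alone (Gclc and Srxn1 added) and 6 with centring, array weights, the covariate or the low-signal filter (Gclc added). At 220 mg/kg limma's 0 calls became 3 with array weights (Nqo1, Srxn1 and Me1) and 1 with the compared groups alone (Nqo1), and stayed 0 with any 1 array left out; at 110 and 55 mg/kg the 0 stayed in all 17 alternatives. The 2 calls between 881 and 440 mg/kg became 0 with the compared groups alone (adjusted p = 0.183 for both genes), 1 with the mean of a gene's probe sets, where Gclc was lost, and 1 to 2 with 1 array left out. The causes were not tested. No called value changed sign. With the replicate block, 7 were called at 881 mg/kg, 2 between the top doses and 7 in the trend; at 440 mg/kg it called 5, with Keap1 in (0.32, adjusted p = 0.0458) and Nfe2l2 out (-0.45, adjusted p = 0.0636). A trend in Osgin1 was called without the 881 mg/kg group (-0.21 per step, adjusted p = 0.0147). Over all genes, the 2767 calls at 881 mg/kg ranged over alternatives from 1561 to 3889 (1643 without 881 mg/kg replicate 2), the 1570 at 440 mg/kg from 867 to 2511, the 488 at 220 mg/kg from 204 to 1293, the 513 at 110 mg/kg from 212 to 800, the 400 at 55 mg/kg from 127 to 842, the 37 between the top doses from 0 to 174 and the 3087 of the trend from 1829 to 4379. Signal near background limits the dim probe sets of Srxn1 and Keap1.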

Other observations

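Chac1, which breaks glutathione down inside the cell and was picked here after its values were seen, had its highest levels at a middle dose. It averaged 7.90 in vehicle, 9.06 at 55 mg/kg, 8.67 at 110 mg/kg, 9.70 at 220 mg/kg, 8.65 at 440 mg/kg and 8.35 at 881 mg/kg. It rose at 55, 220 and 440 mg/kg, and its change at 881 mg/kg was 0.45 (adjusted p = 0.157).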
